A study of Mus musculus with 16 samples.

Results

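The 41 genes described here are markers of the cells that line cardiac blood vessels, lymphatics and heart chambers, out of 51912 genes in the deposited count table. They were chosen by name, as a list of capillary, arterial, endocardial, lymphatic and activated endothelial genes, and each symbol was matched to 1 Ensembl identifier of the table with the mouse GENCODE annotation. 40 of the 41 passed the filter on low counts (10 or more, summed over the libraries, for each of the groups) and were tested among 20159 genes. The exception was *Ackr1*. The libraries came from whole ventricles of neonatal mice, taken above and below the ligature, 7 days after surgery on postnatal day 1. There were 4 libraries per group. WT SH were Lrrc10 WT mice with a sham operation, KO SH were Lrrc10 KO mice with a sham operation, WT MI were Lrrc10 WT mice with a myocardial infarction (MI, made by tying off the left anterior descending artery), and KO MI were Lrrc10 KO mice with the same infarction. The knockout was present in the whole body, and the sham operation opened the chest without exposing the heart. The WT animals were C57BL/6J mice bought from Jackson Laboratories, whereas the KO line had been made on a C57BL/6 background, so that stock and genotype cannot be told apart.

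Endothelial cells form the inner layer of every vessel. Capillary cells exchange oxygen and fatty acids with heart muscle, arterial cells are specified by Notch signaling, and endocardial cells cover the inside of the chambers. Sprouting vessels are led by tip cells, which secrete apelin, while the apelin receptor sits mainly on neighboring capillary and venous cells. Inflamed venules present selectins and adhesion molecules (the products of *Sele*, *Selp*, *Vcam1* and *Icam1*) that slow and hold leukocytes. Neonatal mouse hearts rebuild vessels after infarction, and the comparisons below ask whether these genes differed with injury, with loss of *Lrrc10*, and between the injury responses of the genotypes.

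All 16 libraries held RNA of the defining endothelial genes. Levels between genes were compared as counts per 1000000 counts of a TMM-scaled library (CPM) and kb of exon. In WT SH the highest mean was that of *Cdh5*, which encodes the junction protein VE-cadherin, with 64.7 ± 1.04 CPM per kb (SD, n = 4). *Cav1*, the caveolae scaffold, followed with 41.4 CPM per kb, and *Ptprb*, *Cldn5*, *Aplnr*, *Pecam1* and *Erg* lay between 15.3 and 19.1 CPM per kb. At the other end stood *Esm1* with 0.274, *Ackr1* with 0.0448 and *Selp* with 0.0331 CPM per kb. The order among *Aplnr*, *Pecam1* and *Erg* is within their spread. *Prox1*, a lymphatic regulator that cardiomyocytes also express, reached 14.2 CPM per kb, and its share from lymphatic cells was not tested.

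**Figure D1:**
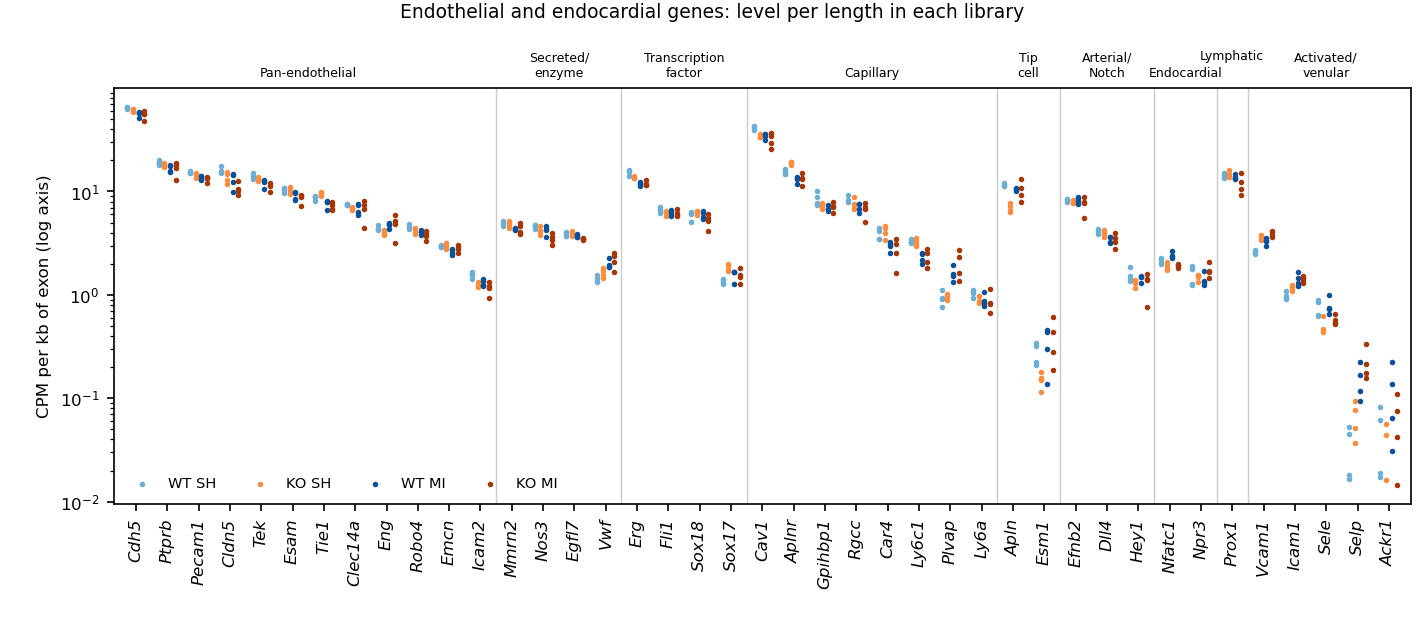
Level of each of the 41 genes in each of the 16 libraries, in CPM per kb of exon on a log axis, grouped by role. Points are single libraries (4 per group, one color per group), and a library with no count is not drawn. By group mean, *Cdh5* and *Cav1* are the highest genes, and *Selp* and *Ackr1* the lowest.

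The libraries held between 33783874 and 57470159 counts, so that 3 counts, taken as the floor, equalled 0.0577 to 0.0858 CPM. *Lrrc10* had 0 counts in all 8 KO libraries and between 26.2 and 35.6 CPM in the WT libraries. The study describes its groups as balanced for sex, while *Xist*, the RNA of the inactive X chromosome, was at 919 to 984 CPM in 6 libraries (2 each of KO SH, WT MI and KO MI) and at most 23.4 CPM in the other 10, among them all 4 WT SH libraries. The KO MI libraries numbered 7 and 2 stood apart. KO MI 7 held the lowest value of all 16 libraries for 20 of the 40 genes tested and for 8 of the 12 pan-endothelial genes, against 12.7% of all genes. KO MI 2 was lowest for 6 genes and highest for 6, against 14.2% and 14.6% of all genes. Calls among the 40 genes that rest on either library are given below with and without it. The labels do not say that the libraries came from separate animals, so the p-values measure the spread between these libraries. A gene was called when the edgeR quasi-likelihood F-test (two-sided, 16 libraries in 1 fit) gave a Benjamini-Hochberg adjusted p under 0.1 over all genes and the absolute log2 fold change was at least 0.5. Below, "rose" and "fell" are used only of called genes. Comparisons that share a group of libraries are not independent of each other. For example, the KO SH libraries enter both the sham comparison of genotypes and the infarction comparison of KO mice.

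After infarction in WT mice, 2 leukocyte adhesion genes and the diaphragm gene *Plvap* rose and a capillary marker fell. WT MI against WT SH called 4 of 40 genes, against 2.78% of all genes in either direction. *Selp*, *Plvap* and *Icam1* rose, against 2.13% of all genes, and *Ly6c1* fell, against 0.645%. Most other genes lay a little lower in WT MI, with 29 of 40 fold changes below 0 and a median of -0.15, against -0.00429 over all genes. With total counts in place of TMM, the median of all genes was 0.13 and that of the 40 genes -0.0232, with 23 below 0 and 29 below the median of all genes. Without a minimum fold change, 5 genes were higher (3.11% of all genes) and 5 lower (2.21%) at an adjusted p under 0.1, against 5.31% of all genes in either direction. The libraries of the groups did not overlap for 22 of the 40 genes, against 12.1% of all genes. Of these, 5 were higher in WT MI (6.15% of all genes) and 17 lower (5.95%). Without WT MI 2, *Selp* was the single gene called.

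In KO mice, infarction was accompanied by a rise of *Selp*, *Plvap* and both tip cell genes and by a fall of *Aplnr* and *Car4*. KO MI against KO SH called 6 of 40 genes, against 7.42% of all genes. The 4 that rose stand against 5.31% of all genes and the 2 that fell against 2.11%. The median over the 40 genes was -0.11, against -0.0103 over all genes, and 28 fold changes were below 0, but with total counts the median was 0.0322, against 0.14 over all genes, and 17 were below 0. Without a minimum fold change, 6 genes were higher (10.2% of all genes) and 12 lower (7.32%), against 17.5% of all genes in either direction. The groups did not overlap for 12 of the 40 genes, against 14.9% of all genes, with 5 higher in KO MI (7.66%) and 7 lower (7.25%). The count of calls rested on KO MI 2, since leaving that library out gave 2 calls, *Plvap* and *Selp*, whereas leaving out KO MI 7 gave 7.

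After sham surgery, KO hearts had less *Apln* and less *Sele* than WT hearts. KO SH against WT SH called these 2 of 40 genes, both lower, against 5.01% of all genes in either direction, 2.53% lower and 2.48% higher. The median was -0.0845, against 0.00527 over all genes. Without a minimum fold change, 3 genes were higher (*Vcam1*, *Sox17* and *Aplnr*, against 5.11% of all genes) and 5 lower (*Apln*, *Sele*, *Icam2*, *Cav1* and *Erg*, against 7.22%), with 12.3% of all genes in either direction. The groups did not overlap for 12 of the 40 genes, against 18.5% of all genes, with 4 higher in KO SH (8.35%) and 8 lower (10.2%). The call of *Sele* was lost in 5 of 8 fits with 1 library left out and with the level of *Xist* as a covariate. That of *Apln* held in all of these.

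After infarction, none of the 40 genes was called between KO and WT. KO MI against WT MI gave 0 calls of 40 by edgeR, against 1.73% of all genes (0.57% higher and 1.16% lower), and 0 by DESeq2. At an unadjusted p under 0.05, 1 gene was higher (5.66% of all genes) and 6 were lower in KO MI (6.75%). *Vcam1*, which was higher, and *Nfatc1*, which was lower, passed the adjusted p but not the minimum fold change, against 3.07% of all genes (1.03% higher and 2.04% lower). The groups did not overlap for 4 of the 40 genes, against 6.48% of all genes, with *Vcam1* higher in KO MI (2.74% of all genes) and *Egfl7*, *Nfatc1* and *Sele* lower (3.74%). The interaction, which asks whether the KO effect post-MI differed from the KO effect post-sham, called 0 of 40 genes against 0.0248% of all genes (0.0198% higher and 0.00496% lower), with 3 genes higher (7.56% of all genes) and 4 lower (6.06%) at an unadjusted p under 0.05.

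**Figure D2:**
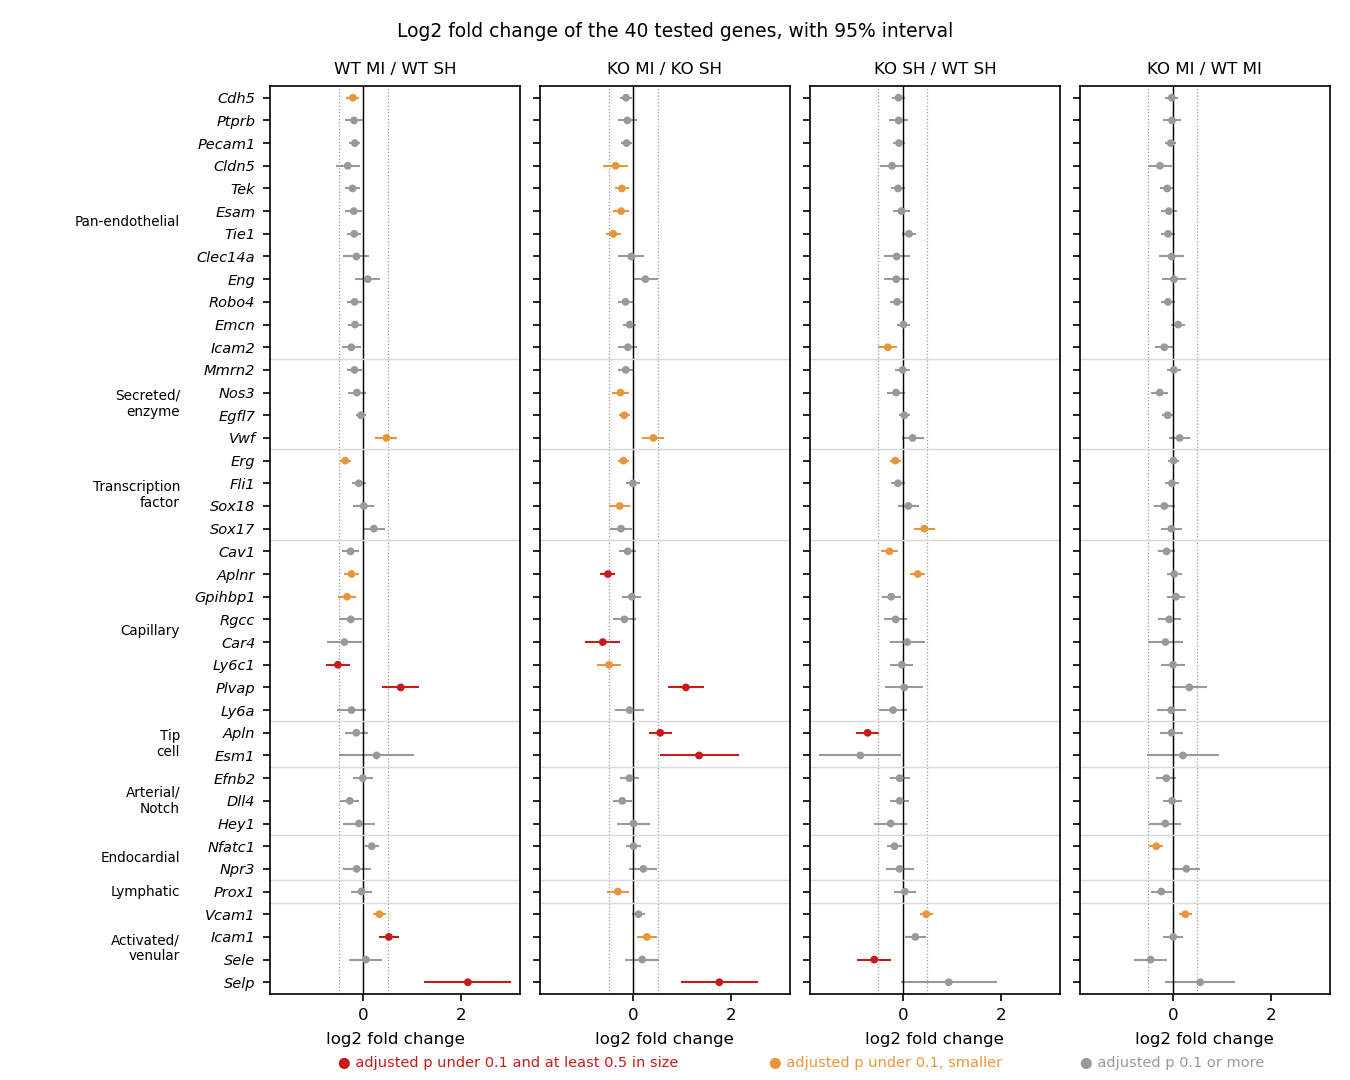
Log2 fold change of the 40 tested genes in 4 comparisons, with the 95% interval of the edgeR fit. Red marks called genes, orange an adjusted p under 0.1 with a smaller fold change, and gray the rest, and dotted lines stand at -0.5 and 0.5. The infarction comparisons hold most of the colored points, and KO MI against WT MI holds 2, both orange.

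The 12 pan-endothelial genes of junctions and cell surface had small negative fold changes with infarction in both genotypes on the TMM scale. Their summed level was 999.97 to 1037 CPM in WT SH, 920.4 to 987 CPM in KO SH, 829 to 954 CPM in WT MI and 745 to 941 CPM in KO MI. Thus each WT MI and KO SH library was below the lowest WT SH library. In whole tissue, fewer endothelial cells and less of these RNAs per cell cannot be told apart. The log2 fold change was below 0 for 11 of 12 genes with infarction in WT (median -0.18) and for 11 of 12 in KO (median -0.14), and relative to the median of all genes 11 of 12 were lower in both with total counts too, where the KO median itself was 0.00921. None of the 12 was called in any of the 5 comparisons.

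*Pecam1*, the platelet endothelial adhesion molecule CD31, measured 157, 149.97, 150.5 and 155 CPM in WT SH and 136, 145, 147 and 151 CPM in KO SH. It measured 141, 130.4, 131 and 142 CPM in WT MI and 138, 136, 134 and 119.7 CPM in KO MI. The sham WT libraries were therefore above all WT MI libraries, while the other neighboring groups overlapped. Its log2 fold change was -0.17 in WT MI against WT SH (SE 0.05, adjusted p = 0.103).

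*Cdh5* measured 277, 284, 287 and 286 CPM in WT SH and 257, 261, 275 and 272 CPM in KO SH. It measured 249, 223, 249 and 259 CPM in WT MI and 264, 246, 244 and 210.4 CPM in KO MI. WT SH was above all 3 other groups without overlap, and KO SH and KO MI overlapped. WT MI was lower than WT SH by a log2 fold change of -0.21 (SE 0.06, adjusted p = 0.0831), and with any 1 of the 8 libraries left out the difference was between -0.24 and -0.17, with adjusted p from 0.0865 to 0.250.

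*Tie1*, an orphan receptor that tunes angiopoietin signaling through *Tek*, had the largest absolute fold change of the 12. It measured 40.6, 44.0, 44.7 and 44.8 CPM in WT SH and 45.7, 46.9, 48.0 and 49.0 CPM in KO SH. It measured 40.6, 33.3, 39.8 and 39.8 CPM in WT MI and 39.98, 33.04, 36.8 and 33.6 CPM in KO MI. All KO SH libraries were above all KO MI and all WT SH libraries. KO MI was lower than KO SH by a log2 fold change of -0.40 (SE 0.07, adjusted p = 0.00221), and the interaction was -0.22 (SE 0.10, unadjusted p = 0.0376, adjusted p = 0.336). The other 9 genes had log2 fold changes between -0.36 and 0.25 in KO MI against KO SH, with adjusted p under 0.1 for *Cldn5* (-0.36), *Esam* (-0.24) and *Tek* (-0.23).

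Among secreted and enzymatic genes, *Vwf* ran opposite to the junction genes. It encodes von Willebrand factor, the clotting protein that endothelial cells store beside P-selectin. *Vwf* measured 25.8, 22.9, 24.4 and 22.2 CPM in WT SH and 24.6, 28.2, 30.1 and 26.2 CPM in KO SH. It measured 31.0, 38.3, 30.9 and 32.3 CPM in WT MI and 35.1, 42.5, 39.7 and 28.2 CPM in KO MI. WT MI was above WT SH without overlap, and of the KO MI libraries all but KO MI 7 were above all KO SH libraries. The log2 fold change was 0.48 in WT MI against WT SH (SE 0.11, adjusted p = 0.0225) and 0.41 in KO MI against KO SH (SE 0.11, adjusted p = 0.0182), both short of the minimum fold change. With total counts it passed that minimum in both (0.61 and 0.56), and with TMM it did so in 3 of 8 fits without a library in WT and in 1 of 8, without KO MI 7, in KO. *Nos3*, *Egfl7* and *Mmrn2*, for the endothelial nitric oxide synthase, an angiogenic factor and a matrix protein, had log2 fold changes between -0.27 and 0.03 in the 4 comparisons, and in KO MI against KO SH *Nos3* (-0.26) and *Egfl7* (-0.18) had adjusted p of 0.0584 and 0.0303. In fits with 1 library left out, these adjusted p reached 0.175 and 0.102.

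Of the transcription factors, *Erg* and *Sox17* differed in opposite directions between the sham groups. *Erg*, an ETS factor that maintains endothelial identity, measured 55.5, 49.2, 54.3 and 53.5 CPM in WT SH and 47.4, 47.1, 48.9 and 47.3 CPM in KO SH. It measured 40.7, 38.9, 42.8 and 42.4 CPM in WT MI and 45.3, 40.1, 40.9 and 40.1 CPM in KO MI. The sham groups were above the MI groups of the same genotype and WT SH above KO SH, each without overlap. *Erg* was lower in WT MI than in WT SH, by -0.37 on the log2 scale (SE 0.05, adjusted p = 0.00152), and the difference was -0.20 in KO MI against KO SH (adjusted p = 0.0252) and -0.16 in KO SH against WT SH (adjusted p = 0.0852). *Sox17*, which acts in arterial differentiation, was at 6.79 to 7.63 CPM in WT SH and 8.99 to 10.5 CPM in KO SH, a log2 difference of 0.43 (SE 0.10, adjusted p = 0.0176). With infarction its log2 fold change was 0.22 in WT (adjusted p = 0.300) and -0.25 in KO (SE 0.10, adjusted p = 0.133). The interaction of *Sox17* was -0.47, the lowest of the 40 genes, and was not called. *Fli1* and *Sox18* had log2 fold changes between -0.27 and 0.11.

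Capillary genes split into *Plvap*, which rose with infarction in both genotypes, and the other 7, which all had fold changes below 0 after infarction in each genotype. *Plvap* (ENSMUSG00000034845, GRCm39 chr8:71948674-71964506, minus strand) encodes the diaphragm protein of fenestrae and caveolae, which continuous cardiac capillaries largely lose with maturation. It measured 4.27, 3.58, 3.52 and 2.95 CPM in WT SH and 3.72, 3.91, 3.55 and 3.44 CPM in KO SH. It measured 6.09, 7.44, 5.80 and 5.10 CPM in WT MI and 5.26, 10.3, 8.88 and 6.28 CPM in KO MI. Each MI library was above every sham library of either genotype. The log2 fold change was 0.77 in WT (SE 0.18, 95% interval 0.39 to 1.14, adjusted p = 0.0268) and 1.08 in KO (SE 0.18, 95% interval 0.70 to 1.45, adjusted p = 0.00172). Without WT MI 2, the rise in WT was 0.66 with an adjusted p of 0.106, and the rise in KO stayed between 0.90 and 1.22 with any 1 library left out. The interaction was 0.31 with a 95% interval of -0.22 to 0.84, so the rises in WT and KO were not shown to differ.

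*Ly6c1* (ENSMUSG00000079018, chr15:74915847-74920686, minus strand) encodes a small surface antigen of capillary cells and of some monocytes. It measured 10.9, 10.5, 11.5 and 10.6 CPM in WT SH and 10.95, 9.75, 10.3 and 11.9 CPM in KO SH. It measured 8.24, 6.65, 7.13 and 8.44 CPM in WT MI and 9.15, 6.02, 8.44 and 6.87 CPM in KO MI. The MI groups were below the sham groups of the same genotype without overlap. *Ly6c1* fell by 0.52 on the log2 scale in WT (SE 0.11, adjusted p = 0.0203), and in KO the log2 fold change was -0.49 (SE 0.11, adjusted p = 0.0108), just under the minimum. The call in WT was lost without WT SH 3, WT MI 2 or WT MI 3 (-0.49, -0.46 and -0.49), all with adjusted p under 0.1, with *Xist* as a covariate (-0.49, adjusted p = 0.0731), and with total counts in place of TMM (-0.39, adjusted p = 0.0340). *Ly6c1* and *Ly6a* belong to a family of close copies, among which RSEM can divide reads, so their levels are uncertain.

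*Car4* (ENSMUSG00000000805, chr11:84848020-84856879, plus strand), a carbonic anhydrase on the capillary surface, measured 15.3, 11.8, 14.2 and 11.8 CPM in WT SH and 13.5, 11.6, 15.998 and 15.2 CPM in KO SH. It measured 10.2, 8.67, 10.7 and 11.1 CPM in WT MI and 8.66, 5.55, 11.8 and 10.6 CPM in KO MI. KO MI overlapped KO SH by 1 library, and WT MI was below WT SH without overlap. *Car4* fell by 0.62 on the log2 scale in KO MI against KO SH (SE 0.17, adjusted p = 0.0261), and its log2 fold change in WT MI against WT SH was -0.38 (adjusted p = 0.264). KO MI 2 held the lowest value, and without it the difference in KO was -0.44 (adjusted p = 0.0538), and with total counts it was -0.47 (adjusted p = 0.0490). *Cav1* had a log2 fold change of -0.28 between the sham groups (adjusted p = 0.0498). *Gpihbp1*, which anchors lipoprotein lipase in capillaries, had one of -0.33 in WT MI against WT SH (adjusted p = 0.0606). In fits with 1 library left out, these adjusted p reached 0.122 for *Cav1* and 0.207 for *Gpihbp1*. *Rgcc* and *Ly6a* had adjusted p over 0.1 in all comparisons.

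Apelin had the larger of the 2 called differences between sham genotypes. *Apln* (ENSMUSG00000037010, chrX:47114019-47123775, minus strand) encodes the secreted peptide apelin. It measured 44.0, 42.3, 42.6 and 45.9 CPM in WT SH and 25.2, 29.5, 27.3 and 24.1 CPM in KO SH. It measured 40.4, 38.0, 40.5 and 39.8 CPM in WT MI and 34.8, 50.1, 40.8 and 29.8 CPM in KO MI. Every KO SH library was below every library of the other 3 groups, and the KO MI libraries spread to both sides of WT MI. *Apln* fell by 0.72 on the log2 scale in KO SH against WT SH (SE 0.11, 95% interval -0.95 to -0.49, adjusted p = 0.000866), and rose by 0.55 in KO MI against KO SH (SE 0.11, 95% interval 0.32 to 0.79, adjusted p = 0.00493). In WT, MI differed from sham by -0.14 (SE 0.11, adjusted p = 0.568), and KO MI from WT MI by -0.03 (95% interval -0.26 to 0.20).

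The difference between sham groups held in every fit with 1 library left out (-0.78 to -0.68) and was -0.80 with the level of *Xist* as a covariate (adjusted p = 0.00149), a check made since *Apln* is on the X chromosome and no WT SH library had high *Xist*. The rise in KO rested in part on KO MI 2, without which it was 0.41 (adjusted p = 0.00943). The interaction of *Apln* was 0.69 (SE 0.16, 95% interval 0.37 to 1.02, unadjusted p = 0.000314), with an adjusted p of 0.146, so it was not called. It was called by DESeq2, without the filter on low counts, with the replicate number as a block, and without WT SH 4 or KO MI 7.

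*Aplnr* (ENSMUSG00000044338, chr2:84966569-84970267, plus strand), the apelin receptor, ran opposite to its ligand in the KO groups. It measured 54.3, 60.4, 54.9 and 57.1 CPM in WT SH and 70.1, 71.2, 67.2 and 70.7 CPM in KO SH. It measured 50.7, 43.4, 48.7 and 49.4 CPM in WT MI and 55.6, 41.6, 49.8 and 48.6 CPM in KO MI. KO SH was above all other groups without overlap. *Aplnr* fell by 0.51 on the log2 scale in KO MI against KO SH (SE 0.07, adjusted p = 0.000753), and without KO MI 2 by 0.44 (adjusted p = 0.000799), and the call was then lost on its size, as it was with total counts (-0.37, adjusted p = 0.00144). Between sham groups the log2 fold change was 0.30 (SE 0.07, adjusted p = 0.0175), and with infarction in WT it was -0.24 (adjusted p = 0.0883). With any 1 library left out, the latter had adjusted p from 0.105 to 0.254.

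*Esm1* (ENSMUSG00000042379, chr13:113346021-113354632, plus strand) encodes endocan, a proteoglycan secreted by tip cells. Its counts were low, at 10 to 71 per library. It measured 0.730, 0.481, 0.772 and 0.508 CPM in WT SH and 0.338, 0.405, 0.355 and 0.262 CPM in KO SH. It measured 0.315, 1.03, 0.674 and 0.999 CPM in WT MI and 0.630, 1.40, 0.983 and 0.428 CPM in KO MI. As for *Apln*, KO SH was lowest, below WT SH and KO MI without overlap. *Esm1* rose by 1.35 on the log2 scale in KO MI against KO SH (SE 0.38, adjusted p = 0.0305), and without KO MI 2 the difference was 1.01 (adjusted p = 0.135). In KO SH against WT SH its log2 fold change was -0.87 (SE 0.40, adjusted p = 0.199). It was called there with only the sham libraries fitted (-0.87, adjusted p = 0.0636) and with *Xist* as a covariate (-1.35, adjusted p = 0.0452).

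**Figure D3:**
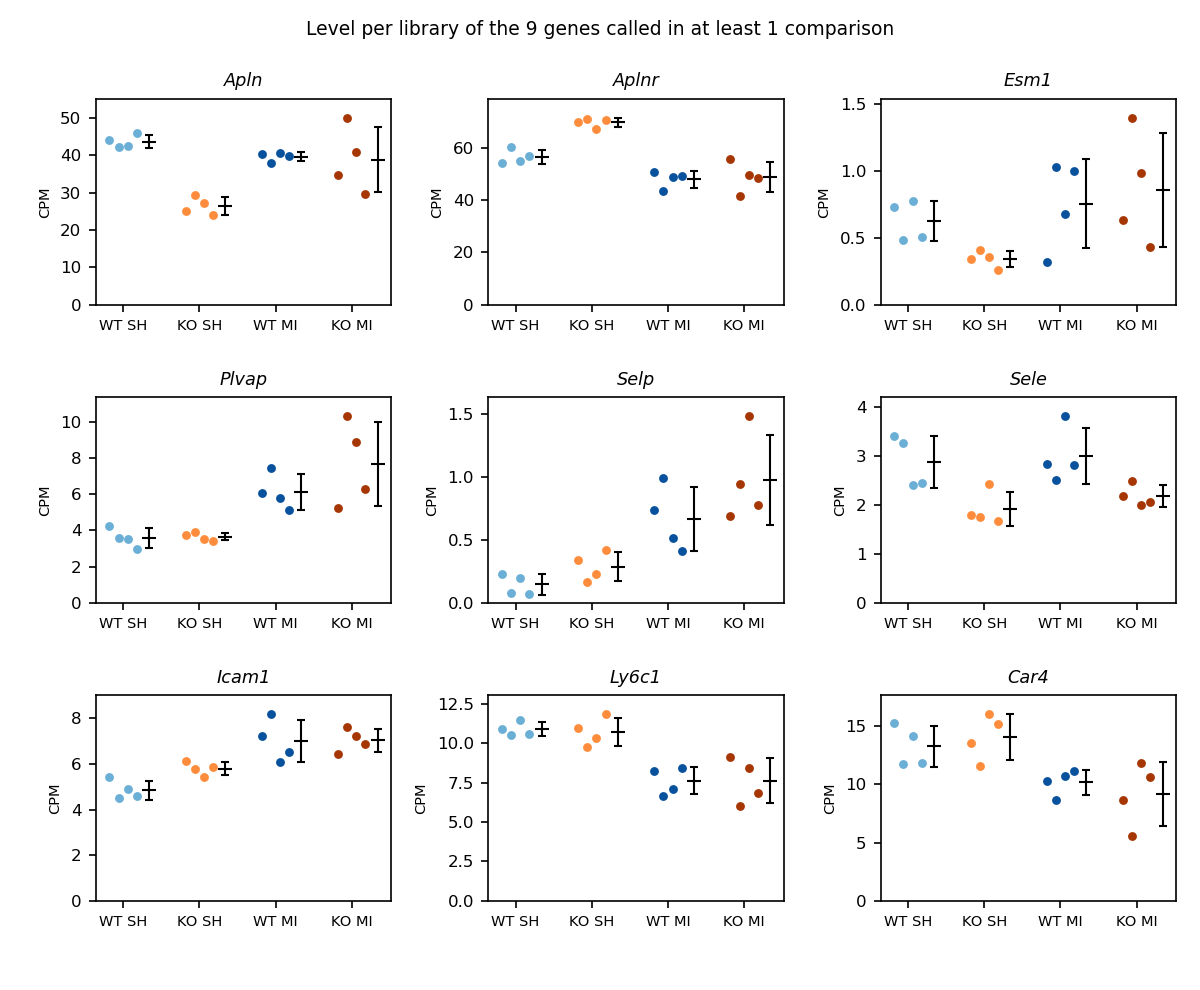
Level in CPM of the 9 genes called in at least 1 comparison, 1 panel each, with the 4 libraries of each group as points and the mean ± SD beside them. *Plvap* and *Selp* are higher in every MI library than in every sham library of the same genotype, *Apln* is lowest and *Aplnr* highest in KO SH, and the KO MI group has the widest spread for *Apln*, *Plvap* and *Car4*.

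Arterial genes differed little. *Efnb2*, the arterial ephrin ligand, measured 61.8, 57.6, 59.7 and 60.9 CPM in WT SH and 55.7, 56.6, 57.3 and 59.4 CPM in KO SH. It measured 63.5, 54.4, 58.2 and 62.8 CPM in WT MI and 57.3, 63.6, 56.4 and 39.9 CPM in KO MI. All groups overlapped, and its largest log2 fold change was -0.14 (KO MI against WT MI, 95% interval -0.34 to 0.07).

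*Dll4*, a Notch ligand of arterial and tip cells, measured 17.1, 15.2, 16.6 and 16.2 CPM in WT SH and 14.96, 14.5, 16.6 and 16.05 CPM in KO SH. It measured 14.4, 12.4, 14.3 and 12.8 CPM in WT MI and 13.9, 15.7, 12.8 and 10.9 CPM in KO MI. WT MI was below WT SH without overlap, with a log2 fold change of -0.27 (SE 0.09, adjusted p = 0.121). *Hey1*, a Notch target, had log2 fold changes between -0.25 and 0.01, and its 3.66 CPM in KO MI 7 was its lowest value.

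The endocardial genes *Npr3* and *Nfatc1* did not move together. *Npr3*, the natriuretic peptide clearance receptor, measured 21.9, 23.8, 15.6 and 15.98 CPM in WT SH and 19.2, 19.5, 18.5 and 16.5 CPM in KO SH. It measured 15.5, 21.4, 16.7 and 17.02 CPM in WT MI and 17.99, 20.7, 25.8 and 20.9 CPM in KO MI. Its groups overlapped throughout, with a log2 fold change of 0.27 in KO MI against WT MI (95% interval -0.01 to 0.56, adjusted p = 0.432).

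*Nfatc1*, a calcium-dependent factor of valve-forming endocardium, measured 17.4, 15.8, 15.2 and 16.9 CPM in WT SH and 14.9, 13.8, 15.9 and 13.4 CPM in KO SH. It measured 20.3, 18.05, 17.3 and 18.3 CPM in WT MI and 13.9, 15.1, 14.4 and 14.98 CPM in KO MI. Each KO MI library was below each WT MI library. The difference was -0.34 on the log2 scale (SE 0.07, 95% interval -0.49 to -0.19, adjusted p = 0.0158), under the minimum fold change, and lay between -0.37 and -0.29 with any 1 library left out. The interaction of *Nfatc1* was -0.17 (SE 0.10, adjusted p = 0.476).

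The single lymphatic gene, *Prox1*, measured 123.5, 134, 129 and 121 CPM in WT SH and 143, 122.7, 133 and 122.9 CPM in KO SH. It measured 119, 120.3, 133 and 124 CPM in WT MI and 110.4, 82.5, 94.5 and 134 CPM in KO MI. KO MI 7 was as high as the sham libraries, and the other 3 KO MI libraries were below all other libraries. In KO MI against KO SH the log2 fold change was -0.31 (SE 0.10, adjusted p = 0.0621), and with any 1 library left out it ranged from -0.45 to -0.21, with adjusted p up to 0.196.

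Among the activation genes, *Selp* had the largest fold change of the 40 genes in both infarction comparisons. *Selp* (ENSMUSG00000026580, chr1:163942833-163977595, plus strand) encodes P-selectin, which tethers leukocytes and is also stored by platelets. It measured 0.231, 0.0802, 0.2002 and 0.0725 CPM in WT SH, from 12, 3, 7 and 3 counts, and 0.338, 0.162, 0.229 and 0.420 CPM in KO SH. It measured 0.735, 0.989, 0.517 and 0.412 CPM in WT MI and 0.691, 0.945, 1.48 and 0.776 CPM in KO MI. Each MI library was above each sham library of the same genotype. *Selp* rose by 2.14 on the log2 scale in WT (SE 0.42, 95% interval 1.25 to 3.03, adjusted p = 0.0114) and by 1.76 in KO (SE 0.38, 95% interval 0.97 to 2.55, adjusted p = 0.00712), and kept both calls with any 1 library left out. The summed level of 7 platelet genes was 4.32 to 5.37 CPM in WT SH, 4.41 to 4.92 CPM in WT MI, 4.87 to 5.48 CPM in KO SH and 4.33 to 5.96 CPM in KO MI, so that the MI group overlapped the sham group of its genotype. Of the 5 platelet genes that were tested, 1 fell in KO MI against KO SH (2.11% of all genes), with log2 fold changes there from -0.62 to 0.92. In WT MI against WT SH 0 were called, with log2 fold changes from -0.86 to 0.23. The part of platelets in the values of *Selp* was not tested.

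*Icam1* (ENSMUSG00000037405, chr9:20926672-20940113, plus strand), which binds leukocyte integrins, measured 5.44, 4.52, 4.89 and 4.59 CPM in WT SH and 6.13, 5.78, 5.42 and 5.87 CPM in KO SH. It measured 7.23, 8.19, 6.07 and 6.53 CPM in WT MI and 6.44, 7.62, 7.22 and 6.90 CPM in KO MI. Both MI groups were above the sham group of their genotype without overlap. *Icam1* rose by 0.53 on the log2 scale in WT (SE 0.10, adjusted p = 0.00785), and the difference in KO was 0.28 (SE 0.10, adjusted p = 0.0678). In KO the adjusted p reached 0.203 in fits with 1 library left out. Without WT SH 2 or WT MI 2 the rise in WT was 0.49 and 0.44, under the minimum fold change at adjusted p of 0.0315 and 0.0358, and with *Xist* as a covariate it was 0.48 (adjusted p = 0.0414).

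*Vcam1*, which binds the leukocyte integrin VLA4 and is also made by fibroblasts and epicardium, measured 23.8, 22.8, 22.6 and 24.6 CPM in WT SH and 34.3, 33.1, 30.8 and 32.1 CPM in KO SH. It measured 30.1, 29.7, 31.9 and 26.5 CPM in WT MI and 32.6, 34.1, 37.4 and 36.8 CPM in KO MI. WT SH was the lowest group and did not overlap with any other. The log2 fold change of *Vcam1* was 0.47 in KO SH against WT SH (SE 0.06, adjusted p = 0.000271), 0.25 in KO MI against WT MI (SE 0.06, adjusted p = 0.0488) and 0.33 in WT MI against WT SH (SE 0.06, adjusted p = 0.0095), each under the minimum fold change. With total counts in place of TMM, or with *Xist* as a covariate, the first of these passed the minimum (0.51 and 0.52). For KO MI against WT MI the adjusted p reached 0.171 in fits with 1 library left out. Of 5 epicardial and mesothelial markers, *Upk3b*, *Msln* and *Upk1b* rose in KO SH against WT SH (1.38, 1.44 and 2.04) and in WT MI against WT SH (1.75, 1.91 and 2.97), *Tbx18* fell in KO SH against WT SH (-0.54) and in KO MI against WT MI (-0.52), and *Upk1b* rose in KO MI against KO SH (1.53). Of all genes, 2.48% rose and 2.53% fell in KO SH against WT SH. In the other comparisons, 2.13% rose in WT MI against WT SH, 1.16% fell in KO MI against WT MI and 5.31% rose in KO MI against KO SH. The sum of the 5 was 26.8 to 30.5 CPM in WT SH, 25.8 to 27.998 CPM in KO SH, 36.1 to 48.5 CPM in WT MI and 25.8 to 47.8 CPM in KO MI. Their part in the values of *Vcam1* was not tested.

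*Sele* (ENSMUSG00000026582, chr1:163867401-163886055, plus strand) encodes E-selectin, made by cytokine-activated endothelium. It measured 3.402, 3.26, 2.40 and 2.44 CPM in WT SH and 1.80, 1.75, 2.42 and 1.68 CPM in KO SH. It measured 2.84, 2.52, 3.82 and 2.82 CPM in WT MI and 2.17, 2.499, 2.004 and 2.06 CPM in KO MI. Of the KO SH libraries only KO SH 3 reached the WT SH range, and all KO MI libraries were below all WT MI libraries. *Sele* fell by 0.59 on the log2 scale in KO SH against WT SH (SE 0.17, adjusted p = 0.0401), a call that 5 of 8 fits without a library lost (those without WT SH 1, WT SH 2, KO SH 1, KO SH 2 or KO SH 4, with log2 fold changes from -0.56 to -0.49 and adjusted p from 0.101 to 0.141) and that was also lost with *Xist* as a covariate (-0.53, adjusted p = 0.103). In KO MI against WT MI the log2 fold change was -0.45 (SE 0.16, adjusted p = 0.206), and with infarction it was 0.06 in WT and 0.19 in KO.

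*Ackr1*, a chemokine-binding receptor of venules, was left untested with 0 to 15 counts per library. It measured 0.115, 0.0267, 0.0858 and 0.0242 CPM in WT SH and 0.0225, 0, 0.0626 and 0.0787 CPM in KO SH. It measured 0.315, 0.194, 0.0899 and 0.0434 CPM in WT MI and 0.0203, 0.0590, 0.154 and 0.107 CPM in KO MI. Most of these are at or under the floor of 3 counts, and differences between groups were not tested.

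The sequence upstream of 3 of the genes with calls is shown, since tip cell and selectin genes moved with genotype or infarction and ETS and NF-kappa B factors are known to act at endothelial promoters. The windows were taken from a RefSeq table of GRCm38.p6 promoters, trimmed to bases outside annotated exons, and each matched GRCm39 exactly at 1 place. They lie at chrX:47123776-47123980 (minus strand) for *Apln*, chr1:163875553-163875739 (plus strand, within an intron of a longer *Sele* transcript, with an antisense transcript over it) for *Sele* and chr1:163942583-163942832 (plus strand) for *Selp*. Capitals mark matches to AGGAAG, the core of an ETS site, and to GGNNNTTCC, a loose NF-kappa B motif, on either strand.
Apln: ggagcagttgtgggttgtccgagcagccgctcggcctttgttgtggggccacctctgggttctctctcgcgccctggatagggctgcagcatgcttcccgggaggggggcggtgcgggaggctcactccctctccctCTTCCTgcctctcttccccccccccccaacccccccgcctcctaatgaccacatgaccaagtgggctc
Sele: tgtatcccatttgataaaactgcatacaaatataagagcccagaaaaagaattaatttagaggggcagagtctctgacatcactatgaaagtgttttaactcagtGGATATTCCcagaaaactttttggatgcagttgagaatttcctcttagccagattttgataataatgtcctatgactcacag
Selp: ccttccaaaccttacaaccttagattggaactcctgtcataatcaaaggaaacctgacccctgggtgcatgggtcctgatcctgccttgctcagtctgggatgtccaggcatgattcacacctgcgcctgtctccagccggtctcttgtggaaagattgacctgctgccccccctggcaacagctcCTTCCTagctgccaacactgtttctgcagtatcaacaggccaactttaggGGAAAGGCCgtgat
Counted back from 1 at the last base of each printed window, the ETS core stood at bases 68 to 63 for *Apln* and 64 to 59 for *Selp*, and the NF-kappa B letters at bases 82 to 74 for *Sele* and 14 to 6 for *Selp*. Such short motifs are common. Within 250 bases before the start, AGGAAG occurred in 29.5% of 32851 promoters and in 12 of the 23 members with an entry, GGNNNTTCC in 15.7% and in 7 of 23, and ACGTG, the hypoxia response core, in 16.6% and in 2 of 23. The percentages are per promoter entry, whereas a member counted if any of its entries held the motif. The member counts are therefore not comparable with the percentages. The first 2 motifs can share bases where TTCC is common to both, and all were chosen with the sequences in view, so the counts are descriptions.

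Set against the junction genes of the same library, *Plvap*, *Selp* and *Ly6c1* were among the genes that still differed with infarction in both genotypes. Set against the same junction genes, *Apln*, *Aplnr*, *Vcam1* and *Sox17* differed with genotype between the sham groups, and their KO MI and WT MI libraries overlapped. The log2 ratio of each gene to the median of the 12 pan-endothelial genes was taken in each library, as a description with no test. The ratio of *Plvap* was higher by 0.81 in WT MI than in WT SH and by 1.02 in KO MI than in KO SH, that of *Selp* by 1.94 and 1.61, and that of *Ly6c1* lower by -0.47 and -0.50, all without overlap. For *Erg* the ratio differed by -0.32 in WT with overlapping libraries. Between sham groups, the ratio was lower in KO by -0.61 for *Apln* and higher by 0.41 for *Aplnr*, 0.58 for *Vcam1* and 0.54 for *Sox17*, each without overlap. On this scale the libraries did not overlap for 13 of the 40 genes in WT MI against WT SH (7.36% of all genes), for 7 in KO MI against KO SH (5.08%), for 13 in KO SH against WT SH (21.1%) and for 0 in KO MI against WT MI (2.27%). The 40 include the 12 genes that make the median, which are tied to it by construction. In WT MI against WT SH, *Cldn5*, *Esam*, *Ptprb*, *Eng* and *Clec14a* were among the 13. These counts are therefore not comparable with the shares of all genes. The median itself was lowest in KO MI 7, at 4.54 on the log2 CPM scale, against 4.91 to 5.27 in the other libraries. The ratios of KO MI 7 are set against this lower median, and the overlap of KO MI with WT MI without that library was not tested.

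**Figure D4:**
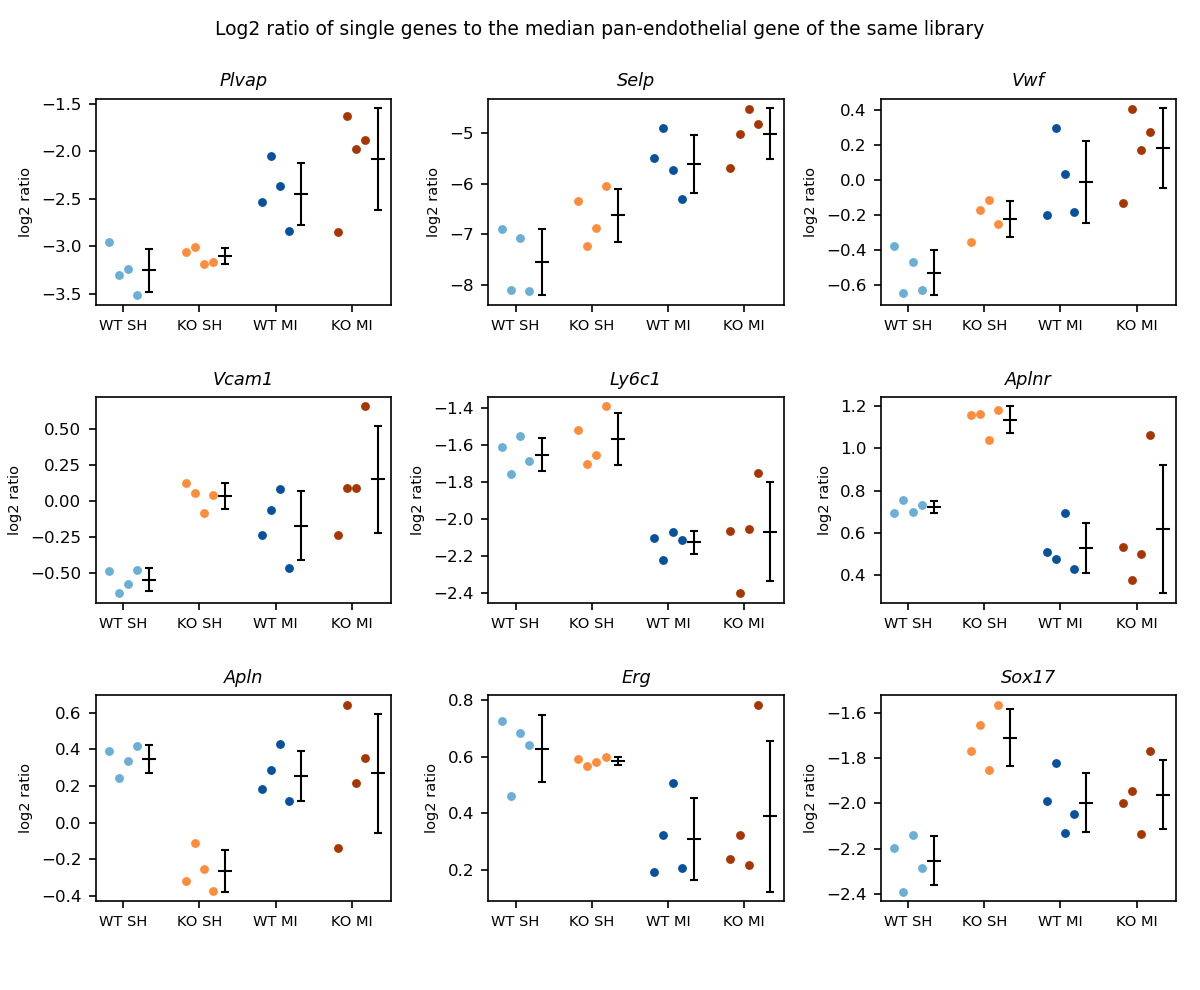
Log2 ratio of 9 genes to the median pan-endothelial gene of the same library, with 4 libraries per group as points and the mean ± SD beside them (vertical axes do not start at 0). *Plvap* and *Selp* lie higher and *Ly6c1* lower in both MI groups, *Aplnr* and *Sox17* have their highest mean in KO SH, and *Apln* its lowest.

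Other endothelial genes, from lists outside the 41, had few calls. Of 40 further endothelial genes, such as those for VEGF receptors and for Notch signaling, 0 were called in WT MI against WT SH (2.78% of all genes in either direction), 1 fell in KO MI against KO SH (2.11% of all genes), 2 fell in KO SH against WT SH (2.53%) and 2 fell in KO MI against WT MI (1.16%). Their median log2 fold changes in the same order were -0.12, -0.0879, -0.0504 and -0.0483. *Klf4*, a shear-responsive factor, was lower in KO libraries. It measured 34.3, 30.7, 28.7 and 29.95 CPM in WT SH, 12.6, 15.2, 13.6 and 13.4 CPM in KO SH. In the infarcted hearts it measured 19.5, 26.5, 18.2 and 27.8 CPM in WT MI and 13.4, 11.9, 14.7 and 12.2 CPM in KO MI. *Klf4* was thus lower in KO than in WT in both surgeries without overlap, with log2 fold changes of -1.18 (adjusted p = 1.11e-05) after sham surgery and -0.82 (adjusted p = 0.00119) after infarction. *Tmem100*, an arterial BMP target, fell by 1.21 and 0.80 on the log2 scale in the same 2 comparisons, and *Aqp1*, a water channel of capillaries, fell by 0.60 in KO MI against KO SH. Of 6 further endocardial genes, *Nrg1*, the neuregulin ligand, rose in KO MI against WT MI (1.21, adjusted p = 0.0218) and against KO SH (1.07, adjusted p = 0.0152), with 18.99 CPM in KO MI 2 and 6.45 to 8.57 CPM in the other KO MI libraries. Without KO MI 2 the log2 fold changes of *Nrg1* were 0.74 (adjusted p = 0.0311) and 0.60 (adjusted p = 0.0395), and with only the WT MI and KO MI libraries fitted the first had an adjusted p of 0.187. *Cdh11*, a mesenchymal cadherin, rose with infarction in WT (0.52) and KO (0.60), and *Vwa1*, for a matrix protein, fell in KO SH against WT SH (-0.55). The call of *Cdh11* in WT was lost without WT SH 3, WT SH 4 or WT MI 2 (0.46 to 0.49), that in KO without KO MI 3 (0.40), and that of *Vwa1* without WT SH 1 (-0.47), while with total counts *Aqp1* was at -0.45 and not called. Of 6 further lymphatic genes, *Ccl21a*, a chemokine gene with close copies that make its count uncertain, and *Mmrn1*, for a secreted glycoprotein, fell in KO MI against KO SH (-1.35 and -0.96), and 0 were called in the other comparisons of groups. All calls named here for KO MI held without KO MI 2 and without KO MI 7.

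Markers of other cells moved with the same groups, and their part in the endothelial results was not tested. The summed level of 8 pericyte genes, which mark the contractile cells on capillaries, was 1179.7 to 1211 CPM in WT SH and 1205 to 1243 CPM in KO SH. It was 939 to 1085 CPM in WT MI and 860.2 to 1080.1 CPM in KO MI. Of the 8 pericyte genes 1 fell in KO MI against KO SH (2.11% of all genes), and 0 were called in the other comparisons of groups. The fibroblast sum of 7 genes was 1166 to 1384 CPM in WT SH and 1036 to 1160.3 CPM in KO SH, whereas it was 1448 to 1683 CPM in WT MI and 1492 to 1663 CPM in KO MI. Of the 7 fibroblast genes 2 rose in KO MI against KO SH (5.31% of all genes), and 0 were called in the other comparisons of groups. The macrophage sum of 7 genes was 47.8 to 55.1 CPM in WT SH, 39.4 to 47.5 CPM in KO SH, 56.7 to 69.0 CPM in WT MI and 46.1 to 97.6 CPM in KO MI, with 6 of 7 genes called higher in KO MI against KO SH (5.31% of all genes) and 3 lower in KO SH against WT SH (2.53%). The smooth muscle sum of 5 genes was 305.7 to 425.8 CPM in WT SH, 266.2 to 318.3 CPM in KO SH, 306.98 to 445.6 CPM in WT MI and 370.9 to 437.98 CPM in KO MI. Of these genes 3 rose in KO MI against KO SH (5.31% of all genes) and 1 fell in KO SH against WT SH (2.53%). The cardiomyocyte sum of 8 genes was 73840 to 86587 CPM in WT SH, 66335 to 68745 CPM in KO SH, 64667 to 68189 CPM in WT MI and 61581 to 67080 CPM in KO MI. Of the 8, *Pln* fell in KO MI against KO SH (2.11% of all genes), and 5 were lower in KO SH and 4 in WT MI than in WT SH at an adjusted p under 0.1 without reaching the minimum fold change. At that adjusted p and any fold change, 7.22% and 2.21% of all genes were lower. All 8 cell cycle genes rose in KO MI against KO SH (5.31% of all genes), and 1 rose in WT MI against WT SH (2.13%). Thymocyte genes summed to at most 3.26 CPM and lung epithelial genes to at most 1.79 CPM in every library. The share of mitochondrially encoded RNA was 45.47% to 46.71% in WT SH, 46.84% to 47.81% in KO SH, 43.51% to 44.18% in WT MI and 38.15% to 44.99% in KO MI, lowest in KO MI 2.

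**Figure D5:**
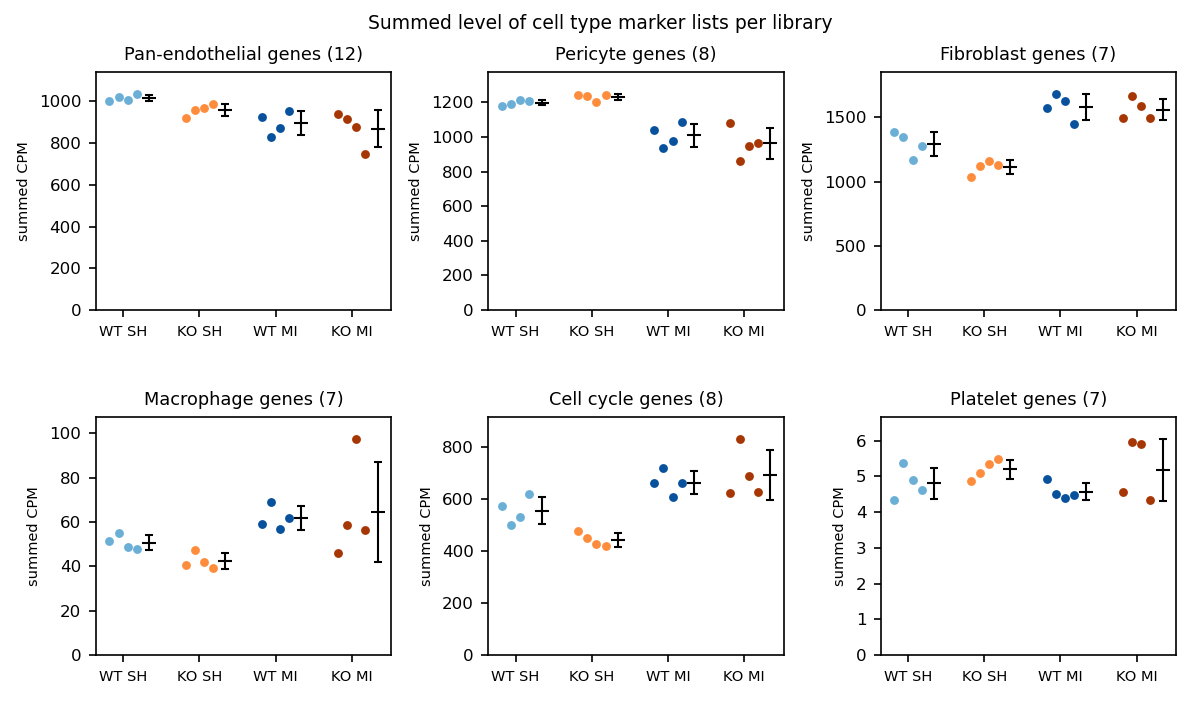
Summed CPM of the pan-endothelial genes and of 5 marker lists of other cells in each library, with the mean ± SD of each group beside the points and vertical axes from 0. On this TMM scale, pan-endothelial and pericyte sums lie lower and fibroblast sums higher in most MI libraries, cell cycle sums are lowest in KO SH, and platelet sums stay between 4.32 and 5.96 CPM.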

How the data were processed

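The authors deposited 1 table of RSEM expected counts per gene for 16 RNA libraries, without normalization. According to the methods, reads were trimmed with Skewer, aligned to GRCm39 with STAR and counted with RSEM after ribosomal RNA depletion with a stranded kit, while the submitters' processing notes name cutadapt, HISAT2 and RSEM. The annotation release is not given in the sources used here. Expected counts were rounded to whole numbers, and 47772 of 51912 identifiers were named from GENCODE M39. In R (version 4.3.3), edgeR (version 4.0.16) fitted 1 coefficient per group to all libraries after TMM scaling, with limma (version 3.58.1), and DESeq2 (version 1.42.0) served as an alternative. A two-sided exact permutation test of log2(CPM + 0.05) was run per gene as well, and it gave every gene whose groups did not overlap the smallest p that 4 libraries against 4 allow, 0.0286. The tests were run on simulated data first. Members and gene lists were chosen with earlier results of these data known. Genes named with values were those called in any contrast, those that failed the filter and a set of reference genes. The floor of 3 counts marks very low levels and entered no filter, interval or test.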

Additional observations from a re-analysis of the deposited data

Results flagged for a closer look

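Of 172 sets of 4 libraries (the 41 genes, their sum and the pan-endothelial sum in each group), 7 held a library far from the other 3 by Dixon's criterion (a gap that is most of the range of the 4), which chance gives in about 1 of 20 sets. These were *Cav1* in KO SH 3 (181 CPM, next 168), *Erg* in KO SH 3 (48.9 CPM, next 47.4) and in KO MI 1 (45.3 CPM, next 40.9), *Sele* in KO SH 3 (2.42 CPM, next 1.80), *Sox17* in WT MI 3 (6.83 CPM, next 8.78), *Sox18* in WT SH 1 (8.17 CPM, next 9.91) and *Tie1* in WT MI 2 (33.3 CPM, next 39.8). Without KO SH 3 the fall of *Sele* in KO SH against WT SH was called and reached -0.73 on the log2 scale.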

How the results depend on the processing

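With DESeq2, with DESeq2 size factors, without the filter and with a robust fit, the counts of calls in the 4 comparisons of groups were the same as reported. The interaction count was 1 in place of 0 (*Apln*) under DESeq2, without the filter and with the replicate block. Over all genes the interaction had 5 calls, against 289, 39 and 689 under these. With any 1 library left out, the count of calls ranged from 0 to 0 in KO MI against WT MI, from 1 to 2 in KO SH against WT SH, from 1 to 5 in WT MI against WT SH, from 2 to 7 in KO MI against KO SH and from 0 to 1 in the interaction. Over all genes, WT MI against WT SH had 560 calls, and 283 without WT MI 2, KO MI against KO SH 1495 and 885 without KO MI 2, KO SH against WT SH 1010 and 661 without WT SH 1, KO MI against WT MI 348, and 575 without KO MI 7, and the interaction 2 to 840. With any 1 library left out, the median log2 fold change of the 40 genes ranged from -0.10 to 0.0284, -0.0962 to -0.0662, -0.19 to -0.13, -0.17 to -0.0480 and -0.0178 to 0.0798, in the order KO MI against WT MI, KO SH against WT SH, WT MI against WT SH, KO MI against KO SH and the interaction. Without a minimum fold change, the counts were 2, 8, 10 and 18 in the first 4. With *Xist* as a covariate, WT MI against WT SH had 2 calls (*Icam1* at 0.48 and *Ly6c1* at -0.49 were lost), and KO SH against WT SH 3 (*Esm1* and *Vcam1* were gained and *Sele* lost). With only the groups compared fitted, KO SH against WT SH had 3 calls, *Esm1* being added. On the ratio to the pan-endothelial median, genes without overlap numbered 0 in KO MI against WT MI (2.27% of all genes), 13 in WT MI against WT SH (7.36%), 7 in KO MI against KO SH (5.08%) and 13 in KO SH against WT SH (21.1%). The genes that make the median are counted too, so the shares of all genes are not a like measure. The median was lowest in KO MI 7 (4.54 on the log2 CPM scale), which shifts the ratios of that library.

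With 2 scalings chosen after seeing the data, the calls and medians moved. The fits given for genes outside the 41 were also added after seeing the data. Total counts raised the median of all genes to 0.13 in WT MI against WT SH and to 0.14 in KO MI against KO SH, and the median of the 40 genes was then -0.0232 and 0.0322. Relative to all genes it stayed at -0.15 and -0.11, with 29 and 27 genes below the median of all genes under each scaling. Of all genes called in these 2 comparisons, 971 were higher and 94 lower, and 1877 higher and 214 lower, against 430 and 130, and 1070 and 425, with TMM. Total counts without mitochondrially encoded genes gave 4 calls in KO SH against WT SH (with *Sox17* and *Vcam1*), and medians of -0.00569 there, -0.0750 in WT MI against WT SH and -0.0460 in the interaction.

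The replicate numbers were taken only as names. Over 21 same-numbered pairs of libraries, the correlation of deviations from the group means was -0.0623 to 0.112, with 1 pair above 0.1. With the replicate block, the medians were 0.0425 in KO MI against WT MI, -0.0333 in KO MI against KO SH and 0.0948 in the interaction, and the calls in the 4 comparisons of groups were the same genes. Depth limits *Ackr1*, *Selp* and *Esm1*, and with at least 10 counts required in every library *Selp* was not tested.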
